A study of Mus musculus with 8 samples.

Results

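Glucocorticoid-responsive genes and metallothioneins were followed in the mouse colon through 9 genes chosen by name: Nr3c1, Hsd11b2, Fkbp5, Tsc22d3, Sgk1, Zbtb16, Cdkn1a, Mt1 and Mt2. Each was found as 1 row among the 52636 genes of the deposited count table, by matching its Ensembl identifier to a symbol. Of the 9, 8 passed the filter on low counts and were tested among 16107 genes, and Mt2, with no count in any library, was not tested. The study measured whole-colon RNA of wild-type, germ-free C57BL/6 female mice kept in gnotobiotic isolators, aged 6 weeks, at 30 days. The 3 groups were 3 libraries from mice labelled control, 3 from mice given Candida albicans SC5314 by oral gavage, and 2 from mice given Candida tropicalis MYA-3404. All mice were germ-free before colonization, so the controls have no gut microbiota and each colonized group carries a single yeast. Whether different libraries come from different mice is not said in the labels, so the p-values refer to variation among libraries that may be technical. They also give no hour of collection, and glucocorticoid levels follow a daily rhythm, so colonization and hour cannot be told apart in any comparison.

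Glucocorticoids enter cells and bind the glucocorticoid receptor, which is held ready by HSP90 and its partner proteins and then binds DNA as a dimer at paired half-sites, the glucocorticoid response element. In colon epithelium, 11-beta-hydroxysteroid dehydrogenase type 2 inactivates glucocorticoids and so leaves the mineralocorticoid receptor to aldosterone. Metallothioneins are small cysteine-rich proteins that bind zinc and copper, and their genes respond both to metals, through the factor MTF1 at metal response elements, and to glucocorticoids.

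Promoter windows of the metallothionein genes and of 1 Sgk1 start are printed because they hold matches to the metal core or the full palindrome searched here. RefSeq promoter windows (GRCm38.p6) were found for 6 of the 9 genes, 14 windows in all, and the 250 bases before each start were searched on both strands. The full palindrome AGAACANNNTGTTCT was found in 3 of 32851 windows (0.00913%), and 1 of these belongs to Sgk1, with its first base at position -189 from the start. The half-site AGAACA alone, which also counts each arm of the palindrome, was found in 16.1% of windows, among them 3 of Sgk1 and 1 of Tsc22d3. The E-box CACGTG, the site of clock activators, was found in 6.02% of windows, among them the same Sgk1 window, at -246, where it overlaps the first half-site, and the window of Fkbp5, at -169. The Sgk1 window lies on chromosome 10, plus strand, chr10:21993640-21993889, and capitals mark half-sites.
Sgk1: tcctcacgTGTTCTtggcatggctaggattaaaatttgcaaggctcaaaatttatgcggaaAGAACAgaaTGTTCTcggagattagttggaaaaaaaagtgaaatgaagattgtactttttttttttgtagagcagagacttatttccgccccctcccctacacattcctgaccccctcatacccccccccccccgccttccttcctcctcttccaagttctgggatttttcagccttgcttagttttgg
The metal response element core was searched as TGCACNC and as TGCGCNC, and 21.4% of windows held at least 1 of the forms. Mt1 (chr8:94178839-94179088, plus strand) held 1 match, at -23, and Mt2 (chr8:94172368-94172617, plus strand) held 3, at -223, -128 and -50. None of the windows of Fkbp5, Tsc22d3, Sgk1 or Cdkn1a held 1. Positions count back from the RefSeq start at the end of each window. The Mt2 window ends at 94172617, before the annotated gene begins at 94172664. Bases beyond the end of each window were not searched, so elements there would be missed. Capitals mark the cores.
Mt1: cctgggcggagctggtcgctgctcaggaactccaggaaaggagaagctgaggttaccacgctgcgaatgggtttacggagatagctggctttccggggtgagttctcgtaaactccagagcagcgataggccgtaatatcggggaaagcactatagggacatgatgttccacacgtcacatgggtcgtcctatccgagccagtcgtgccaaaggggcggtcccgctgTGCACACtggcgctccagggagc
Mt2: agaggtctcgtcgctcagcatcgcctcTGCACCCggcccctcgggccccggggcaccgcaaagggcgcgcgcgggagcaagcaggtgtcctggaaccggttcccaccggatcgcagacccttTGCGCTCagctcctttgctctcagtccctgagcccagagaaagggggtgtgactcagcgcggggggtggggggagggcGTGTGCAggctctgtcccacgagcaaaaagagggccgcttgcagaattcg
A match is a description of these letters and was not tested for binding.

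Levels are given as CPM, counts per 1000000 of a library's scaled total. None of the 8 tested genes passed an adjusted p of 0.05 in any comparison by edgeR's quasi-likelihood test with Benjamini-Hochberg adjustment over all genes tested. For C. albicans against control 0 of 8 passed, where 0.0435% of all tested genes did. For C. tropicalis against control 0 of 8 passed against 0.031% of all genes, and for both colonized groups together against control 0 of 8 against 0.0497%. For C. tropicalis against C. albicans 0 of 8 passed, and 0% of all genes did. At an unadjusted p under 0.05 the counts were 1 of 8 with C. albicans (15.4% of all genes), 2 of 8 with C. tropicalis (15.4%), 2 of 8 between the yeasts (23.2%) and 2 of 8 for both yeasts (11.7%). One gene of 8 is 12.5%, so these counts lay within about 1 gene of what the share over all genes gives. The colonized and control groups did not overlap for 1 of 8 members with C. albicans (19.4% of all genes) and for 3 of 8 with C. tropicalis (32.5%). DESeq2 called 1 of the 8 genes with C. albicans (2.74% of all genes), 1 between the yeasts (10.8%) and 1 for both yeasts together (1.69%), and 0 with C. tropicalis. With limma-voom 0 were called in every comparison.

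**Figure D1:**
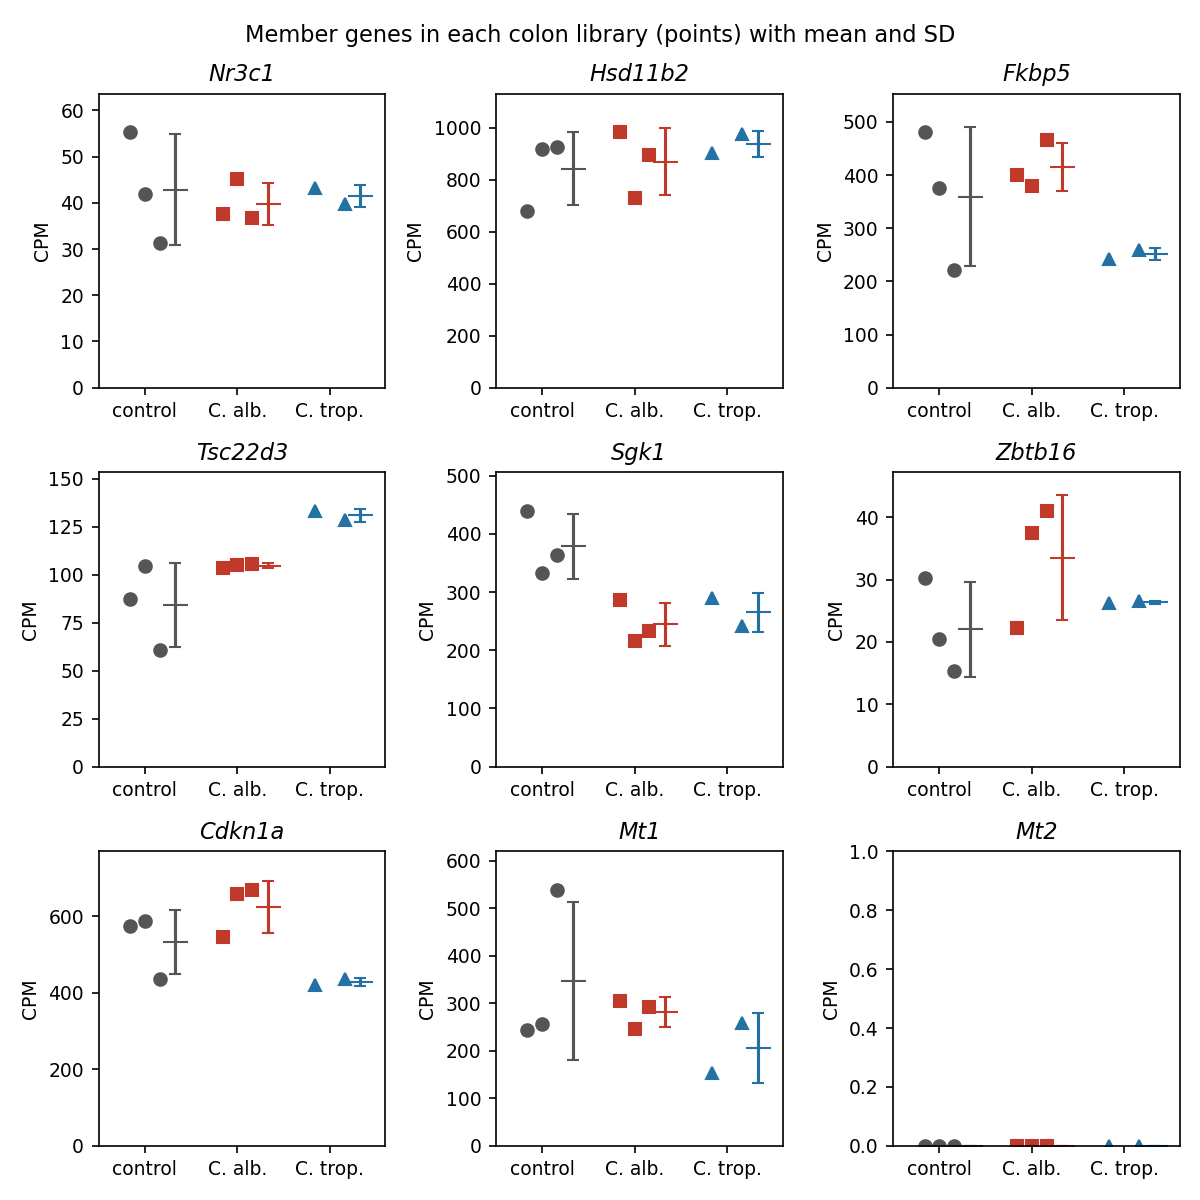
CPM of each of the 9 genes in each of the 8 libraries (points: circles control, squares C. albicans, triangles C. tropicalis), with the group mean and SD beside them. All 5 Sgk1 values of colonized mice lie below the 3 controls, and Mt2 is at 0 throughout.

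The receptor and its guarding enzyme differed little. Nr3c1 (ENSMUSG00000024431, chromosome 18 on GRCm38, 39410545 to 39519421, minus strand) encodes the glucocorticoid receptor. Its level was 55.3, 42.0 and 31.3 CPM in the 3 controls, 37.6, 45.1 and 36.6 CPM with C. albicans, and 43.1 and 39.7 CPM with C. tropicalis. The controls spanned all 5 colonized libraries. The log2 fold change was -0.11 with C. albicans (95% interval -0.55 to 0.34) and -0.05 with C. tropicalis (-0.54 to 0.45). Hsd11b2 (ENSMUSG00000031891, chromosome 8, 105518755 to 105523988, plus strand) encodes the inactivating dehydrogenase. It stood at 681, 917 and 927 CPM in controls, 984, 729.9 and 893 CPM with C. albicans, and 903 and 974 CPM with C. tropicalis. The groups overlapped, with log2 fold changes of 0.05 (95% interval -0.35 to 0.44) and 0.16 (-0.28 to 0.59) against control. Per kilobase of exon, Hsd11b2 was at 476 ± 60.3 CPM (SD, n = 8), against 0.775 ± 0.234 for Hsd11b1, which encodes the enzyme of the reverse reaction. Nr3c2, the mineralocorticoid receptor gene, was at 11.7 ± 1.97 CPM per kilobase and Nr3c1 at 5.38 ± 0.926, and the ranges of the 2 receptors over the libraries did not overlap.

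Sgk1 was the member with the smallest unadjusted p against control with C. albicans and over both yeasts, while with C. tropicalis Tsc22d3 had the smaller p. It encodes a serum- and glucocorticoid-regulated kinase that keeps the epithelial sodium channel at the cell surface, and it is a target of both corticoid receptors. The gene (ENSMUSG00000019970) lies on chromosome 10, 21882184 to 21999903, plus strand, and the window with the palindrome printed above belongs to one of its internal starts. Its level was 439.7, 332 and 364 CPM in controls, 286, 215 and 233 CPM with C. albicans, and 289 and 241 CPM with C. tropicalis. Every colonized library lay below every control. The log2 fold change was -0.63 ± 0.17 (SE) with C. albicans, 0.646-fold, with an edgeR adjusted p of 0.203. With C. tropicalis it was -0.51 ± 0.19, 0.701-fold, with an edgeR adjusted p of 0.272. The yeasts, which share the controls in those values, differed from each other by 0.12 (95% interval -0.30 to 0.53). Over both yeasts the log2 fold change was -0.57 ± 0.15, 0.673-fold, with an edgeR adjusted p of 0.244. Groups that did not overlap in this 5 against 3 comparison were found for 1 of the 8 members and for 6.68% of all genes tested. The tools differ in their call: DESeq2 gave Sgk1 an adjusted p of 0.0211 with C. albicans and 0.0251 over both yeasts, with log2 fold changes of -0.62 and -0.57. The direction held in all 17 alternatives for C. albicans, from -0.72 to -0.51, with adjusted p from 0.0211 to 0.555.

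Tsc22d3 was at its highest with C. tropicalis. The gene encodes GILZ, the glucocorticoid-induced leucine zipper, a mediator of anti-inflammatory glucocorticoid action, and lies on chromosome X, 140539528 to 140600659, minus strand (ENSMUSG00000031431). Control libraries had 87.3, 104.8 and 61.0 CPM, C. albicans libraries 103.3, 105.4 and 105.6 CPM, and C. tropicalis libraries 133 and 129 CPM. Both C. tropicalis libraries lay above the other 6, while the C. albicans range began below control 2. Against control the log2 fold change was 0.63 ± 0.20 (SE) with C. tropicalis, 1.55-fold, with an edgeR adjusted p of 0.242. With C. albicans it was 0.31 ± 0.18, with an edgeR adjusted p of 0.413, and it was 0.13 without control 3 and 0.52 without control 2. Tsc22d3 and Sgk1, both textbook targets of the receptor, thus stood on opposite sides of the control mean in both colonized groups. The 3 controls of Tsc22d3 varied more (coefficient of variation 26.1%) than the 3 C. albicans libraries (1.20%).

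Fkbp5 and Cdkn1a shared a pattern across libraries, lower with C. tropicalis than with C. albicans. Fkbp5 encodes FKBP51, a co-chaperone of the receptor that is induced by glucocorticoids and dampens receptor activity (ENSMUSG00000024222, chromosome 17, 28399094 to 28517527, minus strand). It stood at 481, 375 and 221 CPM in controls, 399.8, 379 and 466 CPM with C. albicans, and 243 and 259 CPM with C. tropicalis. Control 3 was the lowest of the 8 libraries and control 1 the highest, so the controls spanned both colonized groups. The 2 C. tropicalis libraries lay below the 3 of C. albicans, with a log2 difference of -0.73 ± 0.28 (SE) and an edgeR adjusted p of 0.171. Without control 3, a library outside this comparison that still enters the shared estimate of spread, the difference was also -0.73 but passed (adjusted p = 0.0458, edgeR, with 5.62% of all genes called). It passed too when only these 2 groups were fitted (adjusted p = 0.0417, edgeR, 5.47% of all genes called).

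Cdkn1a encodes p21, a cyclin-dependent kinase inhibitor under the control of p53 and of glucocorticoids (ENSMUSG00000023067, chromosome 17, 29090976 to 29100727, plus strand). Its level was 574, 588 and 436 CPM in controls, 546, 658 and 669 CPM with C. albicans, and 421 and 436 CPM with C. tropicalis. The 2 C. tropicalis libraries were the lowest of the 8, next to control 3. Between the yeasts the log2 difference was -0.54 ± 0.18 (SE), 0.686-fold, with an edgeR adjusted p of 0.118 and a DESeq2 adjusted p of 0.0260. Groups did not overlap between the yeasts for 3 of 8 members (Fkbp5, Cdkn1a and Tsc22d3), where 45.9% of all tested genes did so. Over the 8 libraries, log2 CPM of Fkbp5 and Cdkn1a had a Pearson r of 0.89, the highest of the 28 pairs of members, and these points share the same libraries.

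Markers of smooth muscle and the level of Cdx2 were also lower with C. tropicalis than with C. albicans. Smooth muscle markers were lowest with C. tropicalis: their summed level was 3988 and 5068 CPM there, 10150.1 to 29288 CPM with C. albicans and 6929 to 13795 CPM in controls, and all 15 of 15 were lower with C. tropicalis than with C. albicans. Cdx2, an intestinal identity factor, was at 26.3 and 28.5 CPM with C. tropicalis and 26.9 CPM in control 3, and at 192 to 469.7 CPM in the other 5 libraries. It is 1 of 13 colonocyte markers, which did not share 1 direction. Of these, 7 were higher and 6 lower with C. tropicalis than with C. albicans, with a median log2 difference of 0.04. After adding a smooth muscle covariate to the fit, the difference between the yeasts became -0.17 ± 0.42 (SE) for Fkbp5 and -0.11 ± 0.27 for Cdkn1a. The covariate, the mean log2 CPM of these markers relative to all 8 libraries, was -0.039 to 1.51 with C. albicans and -1.18 and -0.92 with C. tropicalis. It did not overlap between the yeasts, so that fit cannot tell marker level and yeast apart. The part of smooth muscle content or of Cdx2 level in these differences was not tested. In bulk tissue, fewer cells of a type and less RNA per cell cannot be told apart.

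**Figure D2:**
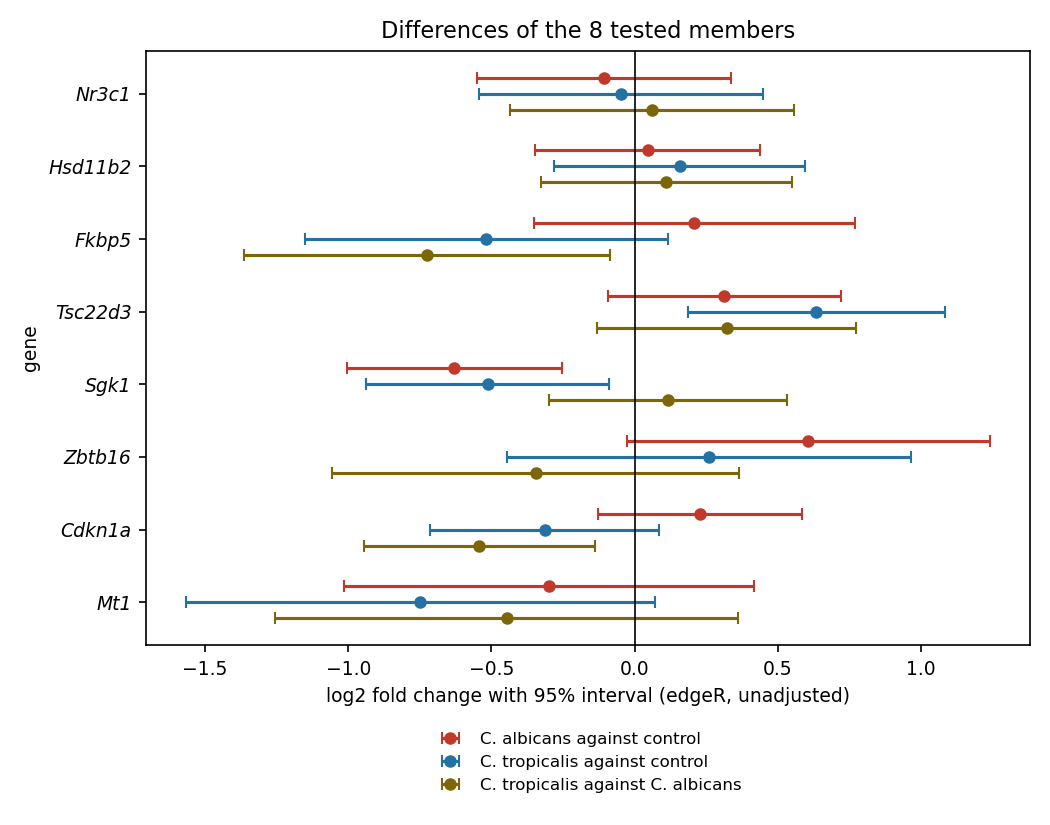
Log2 fold changes of the 8 tested genes (points) with unadjusted 95% intervals (bars) in 3 comparisons, from 1 edgeR fit of 8 libraries. The intervals of Sgk1 against control lie below 0 for both yeasts, and those of Fkbp5 and Cdkn1a lie below 0 between the yeasts; none of these passed after adjustment over all genes.

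Zbtb16 had overlapping groups in every comparison. It encodes PLZF, a zinc-finger repressor that is induced by glucocorticoids in many tissues (ENSMUSG00000066687, chromosome 9, 48654297 to 48836222, minus strand). The controls had 30.3, 20.5 and 15.3 CPM, the C. albicans libraries 22.2, 37.4 and 41.0 CPM, and the C. tropicalis libraries 26.2 and 26.6 CPM. The 2 highest values were C. albicans libraries and the 2 lowest were controls. The log2 fold change with C. albicans was 0.61 ± 0.28 (SE), 1.52-fold, with an edgeR adjusted p of 0.335, and 0.16 ± 0.21 with the smooth muscle covariate. With C. tropicalis it was 0.26 ± 0.31, and 0.93 ± 0.26 with that covariate. Control 3 had the lowest level and control 1 the highest of the controls: without control 3 the values were 0.40 and 0.053, and without control 1 they were 0.91 and 0.56.

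Mt1 carried the metallothionein signal, and a single control decided its group mean. It encodes metallothionein 1 (ENSMUSG00000031765, chromosome 8, 94179082 to 94180327, plus strand). The controls had 244, 256 and 539 CPM, the C. albicans libraries 305, 247 and 292 CPM, and the C. tropicalis libraries 154 and 259 CPM. Control 3 was higher than every other library, and the remaining 7 lay between 154 and 305 CPM. Against control the log2 fold change was -0.30 ± 0.32 (SE) with C. albicans and -0.75 ± 0.36 with C. tropicalis, with edgeR adjusted p of 0.647 and 0.353. Without control 3 these became 0.17 ± 0.22 and -0.28 ± 0.24, so the direction with C. albicans turned. Log2 CPM of Mt1 and Tsc22d3 had the most negative Pearson r of the 28 pairs, -0.85 over the 8 libraries.

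Mt2 had 0 counts in each of the 8 libraries, so its level could not be read. The gene (ENSMUSG00000031762, chromosome 8, 94172664 to 94173568, plus strand) ends 5514 bp before Mt1 begins. Of its 588 exon bases, 432 (73.5%) are shared with Gm45774 (ENSMUSG00000110588), a 1-exon antisense transcript on the minus strand from 94170748 to 94173412, which had 17 counts over the 8 libraries. The last 156 exon bases of Mt2 are its own. The other 8 members share 0 exon bases with another gene. The library kit does not keep strand, and reads that lie in both genes cannot be told apart without it. Among protein-coding genes that share 90% or more of their exon bases with other genes, 191 of 230 (83.0%) had 0 counts. Among those that share under 10%, 3858 of 19305 (19.98%) had 0 counts. In the class of Mt2, from 50% up to 90%, 49 of 331 (14.8%) had 0 counts, a smaller share than in the least shared class. The median total was 41 counts in the class of Mt2 against 750 in the least shared class. How the counting step treated reads in 2 genes is not given in the sources used here, and its part in the 0 was not tested. A count of 0 allows up to 0.157 to 0.183 CPM per library (3 counts) for reads assigned to Mt2 alone. This limit covers counting error only.

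**Figure D3:**
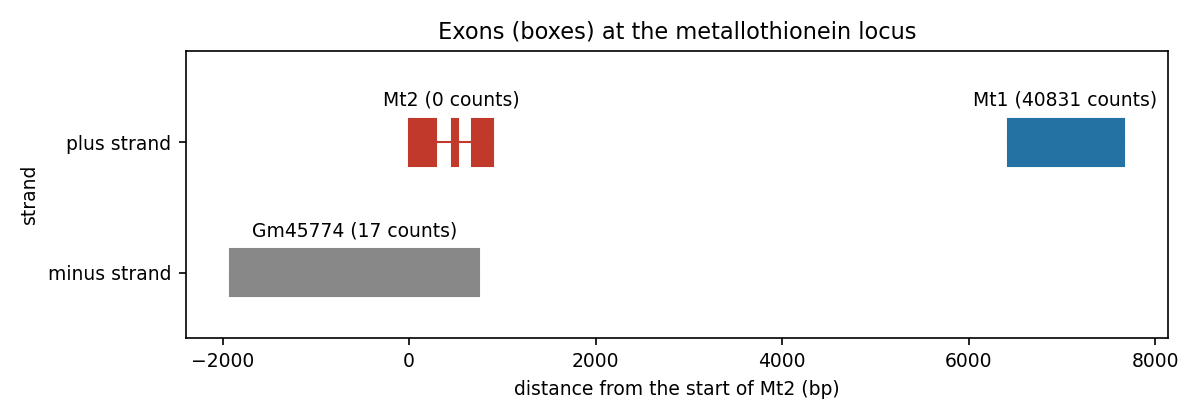
Annotated exons (boxes) of Mt2, its antisense neighbour Gm45774 and Mt1 by strand, against distance in bp from the start of Mt2, with counts summed over 8 libraries. Gm45774 (17 counts) covers all of Mt2 (0 counts) except the last 156 exon bases, and Mt1 (40831 counts) stands apart.

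The other metallothionein genes of the locus were low. Mt3, known mainly from the brain, ranged from 1.60 to 7.19 CPM and Mt4, known from stratified epithelia, from 0 to 0.393 CPM over the 8 libraries. Mt4 values are at or near the level that 3 counts represent.

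Across genes, levels can be compared only per length of exon, taken here as the union of all annotated exons, which for Mt1 is the whole gene and so longer than the spliced mRNA. Hsd11b2 was the highest in every library (mean 476 CPM per kilobase over 8 libraries), followed by Mt1 (230.4), Cdkn1a (152), Sgk1 (61.2), Fkbp5 (37.3), Tsc22d3 (23.9), Nr3c1 (5.38) and Zbtb16 (5.19). Neighbours in this order whose ranges over libraries did not overlap were Cdkn1a above Sgk1 and Tsc22d3 above Nr3c1. Sgk1 was above Fkbp5 in 7 of 8 libraries, Fkbp5 above Tsc22d3 in 6 of 8, and Nr3c1 above Zbtb16 in 6 of 8. The order of these neighbours was thus not the same in every library, and their differences were not tested.

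**Figure D4:**
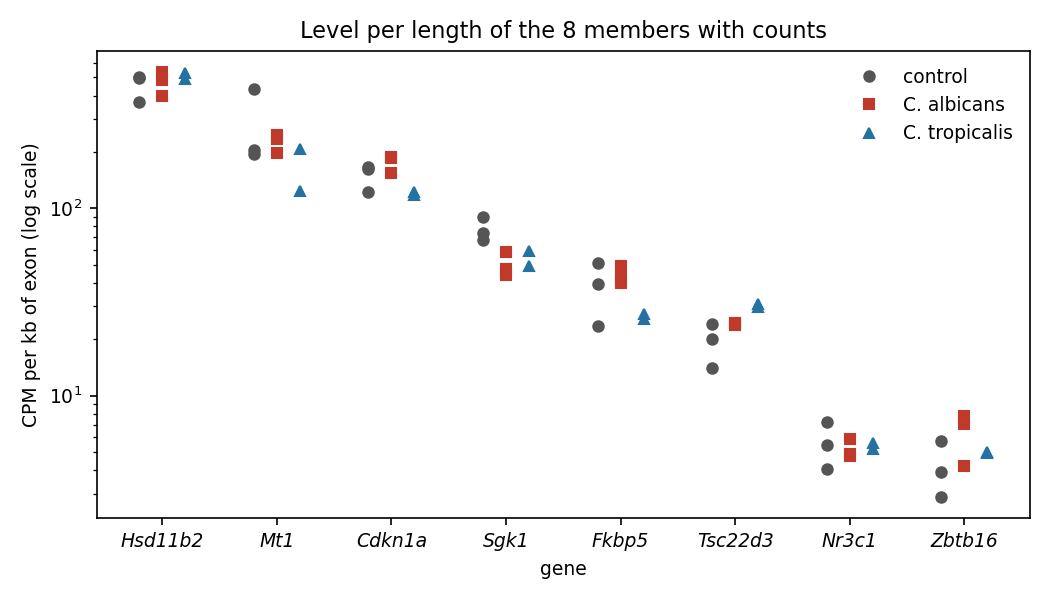
Level of the 8 members with counts in CPM per kilobase of exon (log axis), 1 point per library, by group. Hsd11b2 is at the top and Nr3c1 and Zbtb16 overlap at the bottom.

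Related genes were then counted from lists of the same pathways. Of 24 tested genes known to respond to glucocorticoids in various tissues, 0 passed with either yeast by edgeR's adjusted p. Per1, also a known receptor target, is not among them: it was counted with the clock genes below, where it passed with C. albicans. The list was chosen with earlier results of these data known, so the 0 depends on that choice. Their median log2 fold change was 0.28 with C. albicans and 0.21 with C. tropicalis, beside -0.02 over all tested genes in each comparison. The first median was 0.12 without control 1, and the second 0.14 without control 3 and 0.091 without C. tropicalis 1. At an unadjusted p under 0.05 there were 11 of 24 with C. albicans (7 higher, 4 lower) and 7 of 24 with C. tropicalis (5 higher, 2 lower), beside 15.4% of all genes in each comparison. Cebpb, a transcription factor of inflammation and metabolism, was at 12.9 ± 7.78 CPM in controls and 41.6 ± 10.3 CPM with C. albicans (SD, n = 3 and 3; edgeR adjusted p = 0.185). Errfi1, a feedback inhibitor of the EGF receptor, was at 61.0 ± 17.5 and 116 ± 17.3 CPM (edgeR adjusted p = 0.177). Anxa1, the anti-inflammatory protein annexin A1, was at 159 ± 4.02 CPM in controls, 159.8 ± 11.3 CPM with C. albicans and 275 ± 6.19 CPM with C. tropicalis (SD, n = 3, 3 and 2). Its edgeR adjusted p was 0.104 with C. tropicalis against control and 0.0646 between the yeasts. Angptl4, an inhibitor of lipoprotein lipase, had a lower mean in both colonized groups, at 3.58 ± 1.33 CPM in controls, 1.29 ± 0.412 with C. albicans and 0.596 ± 0.117 with C. tropicalis (edgeR adjusted p = 0.203 and 0.135).

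The partners of the receptor in this list gave no call, while Hspa8 was counted with the heat shock genes below. Of 13 chaperone and coregulator genes, 0 passed, while 9 were higher with C. albicans and 12 with C. tropicalis, beside 48.2% and 47.9% of all genes. Their median log2 fold changes were 0.31 and 0.58. Leaving out control 1 gave a C. albicans median of 0.058, leaving out C. albicans 2 gave 0.21, and leaving out C. tropicalis 1 gave a C. tropicalis median of 0.36. At an unadjusted p under 0.05 there were 5 of 13 in each comparison (15.4% of all genes in each). Stip1 encodes HOP, the adaptor that passes receptors from HSP70 to HSP90. It was at 95.6 ± 12.1 CPM in controls, 181 ± 34.6 CPM with C. albicans and 202 ± 23.0 CPM with C. tropicalis (SD, n = 3, 3 and 2), with all 5 colonized libraries above the controls. Its edgeR adjusted p was 0.114 and 0.120. Hsp90ab1, the constitutive HSP90, was at 1292 ± 78.4, 1972 ± 319 and 2396 ± 178 CPM, with edgeR adjusted p of 0.203 and 0.135, and its groups did not overlap with the controls either.

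Genes of steroid handling gave no call. Of 10 tested, 0 passed, and the median log2 fold change was -0.21 with C. albicans and -0.08 with C. tropicalis, or from -0.28 to -0.10 and from -0.13 to 0.028 with 1 library left out. Srd5a1, a steroid 5-alpha-reductase, was at 8.89 ± 0.706 CPM in controls, 7.57 ± 1.34 with C. albicans and 12.8 ± 0.612 with C. tropicalis (SD, n = 3, 3 and 2), with an edgeR adjusted p of 0.0802 between the yeasts. Akr1c14, a hydroxysteroid dehydrogenase, was at 110.2 ± 14.6, 78.6 ± 11.2 and 94.8 ± 10.4 CPM. Cyp11a1, which starts steroid synthesis, was at 5.53 CPM in control 3, 1.49 CPM in control 2, and 0 to 0.393 CPM in the other 6 libraries. Crh and Cyp11b1 had 0 counts in every library.

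Metal handling gave no call either. Of 22 tested genes 0 passed, 11 were higher and 11 lower with C. albicans, and the median log2 fold change was -0.01 with C. albicans and 0.08 with C. tropicalis. Slc39a4, the ZIP4 importer that takes up zinc from the gut lumen, was at 177 ± 45.8 CPM in controls, 191 ± 3.92 with C. albicans and 253 ± 9.77 with C. tropicalis (SD, n = 3, 3 and 2; edgeR adjusted p = 0.283 for C. tropicalis). Slc30a7, a zinc exporter of the Golgi, was at 31.9 ± 1.31, 33.5 ± 1.65 and 40.1 ± 2.71 CPM (edgeR adjusted p = 0.268 for C. tropicalis). Slc39a5, the ZIP5 importer of the basolateral side, was at 174 ± 52.9, 119 ± 10.8 and 195 ± 5.98 CPM. Slc11a2, the divalent metal transporter DMT1, was at 107 ± 53.4, 54.2 ± 13.8 and 67.3 ± 12.7 CPM.

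Other pathways that act on some of the members were counted too, and 9 NRF2 target genes and 17 p53 targets and kinase inhibitors had 0 calls each. Osgin1, an oxidative stress growth inhibitor, stood out by level, at 26.5 ± 5.99 CPM in controls, 55.8 ± 3.98 with C. albicans and 67.5 ± 16.6 with C. tropicalis (SD, n = 3, 3 and 2). All 5 colonized libraries were above the controls, and the edgeR adjusted p over both yeasts was 0.0670. Hmox1, heme oxygenase 1, was at 4.03 ± 0.650 CPM in controls, 5.03 ± 1.20 with C. albicans and 6.94 ± 0.280 with C. tropicalis. Srxn1, sulfiredoxin, was at 166 ± 46.5 CPM in controls, 227 ± 37.9 with C. albicans and 138 ± 1.89 with C. tropicalis. Of the p53 targets beside Cdkn1a, Aen, a nuclease of apoptosis, was at 29.9 ± 3.15 CPM in controls, 47.1 ± 10.5 with C. albicans and 48.8 ± 2.54 with C. tropicalis (edgeR adjusted p = 0.203 and 0.206). Sesn2, a stress-induced inhibitor of mTORC1 signalling, was at 18.9 ± 1.47, 27.6 ± 2.74 and 22.4 ± 3.18 CPM, and Zmat3, an RNA-binding protein, at 28.8 ± 0.582, 36.1 ± 5.52 and 38.7 ± 0.697 CPM.

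Calls were found among clock and heat shock genes, some of which also respond to glucocorticoids. These lists were chosen with earlier results of these data known, so the calls are not independent of that choice. Of 19 clock genes, 4 passed with C. albicans (Per1, Per2 and Ciart higher, Arntl lower) and 1 with C. tropicalis (Per2). Per1, a clock repressor whose promoter is a known receptor target, was at 90.6, 88.2 and 96.4 CPM in controls, 223, 208 and 251 CPM with C. albicans, and 181 and 138 CPM with C. tropicalis. It rose 2.48-fold with C. albicans (log2 1.31 ± 0.14, SE, edgeR adjusted p = 0.0222), while with C. tropicalis the edgeR adjusted p was 0.135. Of 12 heat shock genes, Hsph1 passed with C. albicans and Hspa8 with C. tropicalis. Hspa8, the HSP70 that loads the receptor, was at 923 ± 130 CPM in controls, 2156 ± 387 with C. albicans and 3207 ± 422 with C. tropicalis (SD, n = 3, 3 and 2), and rose with C. tropicalis (log2 1.80 ± 0.21, SE, edgeR adjusted p = 0.0409). Hspa1a, the stress-induced HSP70, was at 25.9 ± 2.39 CPM in controls and 266 ± 105 CPM with C. albicans (edgeR adjusted p = 0.0711). Per3 was at 17.6 ± 2.26, 40.2 ± 5.62 and 42.1 ± 11.3 CPM, with edgeR adjusted p of 0.0711 and 0.104. Over all genes 7 were called with C. albicans and 5 with C. tropicalis, and the counts were 0 without C. albicans 3 for the first and 0 without control 1, control 2 or C. tropicalis 1 for the second.

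**Figure D5:**
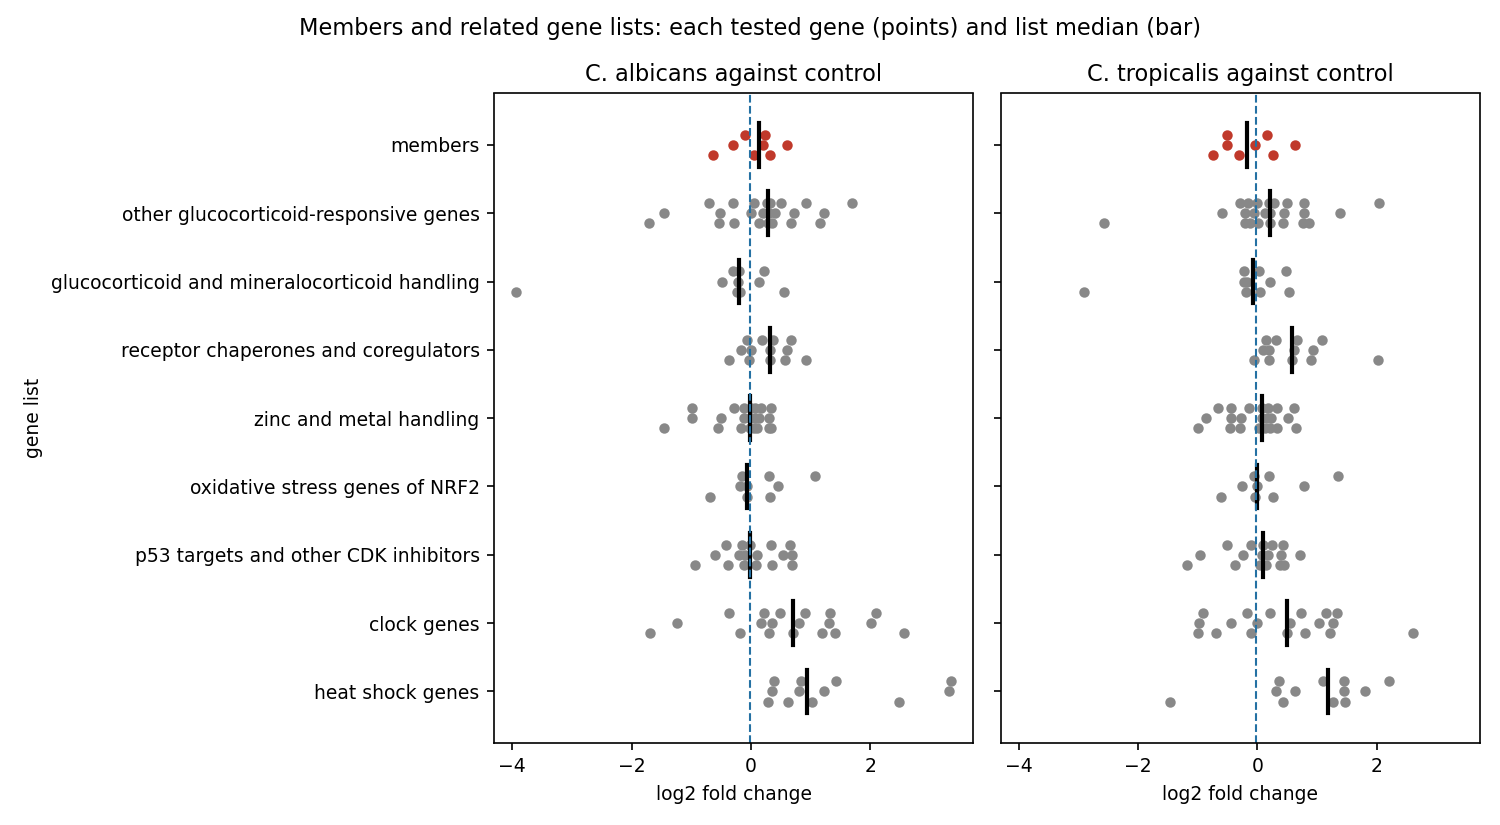
Log2 fold changes of each tested gene (points) in the 8 tested members (red) and 8 related lists, for each yeast against the same controls; black bars are list medians and the dashed line is the median of all tested genes. The members lie around 0 (medians 0.13 and -0.18), and heat shock genes have the highest median in each comparison (0.93 with C. albicans), with C. tropicalis also when C. tropicalis 1 is left out (0.50). Members and lists were chosen with earlier results of these data known.

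Genes with the most similar pattern to each member were found among 10646 protein-coding genes with a mean of at least 5 CPM, by Pearson r of log2 CPM over the same 8 libraries. For Sgk1 these were Ptch1 (0.99) and Chd2 (0.97), for Tsc22d3 Elovl5 (0.98) and Tkt (0.97), and for Fkbp5 Gpr160 (0.98) and Btnl6 (0.98). For Cdkn1a they were Adamts8 and Kcnma1 (0.98 each), for Zbtb16 Bcl2l2 (0.98) and Oma1 (0.96), and for Nr3c1 Rnd3 (0.97) and Gxylt1 (0.96). For Hsd11b2 they were Hgfac (0.96) and St6galnac4 (0.95), and for Mt1 Echdc2 and Bnip1 (0.91 and 0.90). The largest r among so many genes is high by selection, and the values describe these 8 libraries only.

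The libraries held 16195376 to 19761098 counts assigned to genes. All 13 colonocyte markers passed the filter, with a summed level of 13481 to 20661 CPM. B cell markers ranged from 14.1 to 332 CPM in summed level and T cell markers from 10.4 to 37.7 CPM, both widest among the controls. Of the tested markers, 9 of 9 adipocyte and 9 of 9 enteric neuron and glia genes were lower with C. tropicalis than in controls. So were 7 of 8 fibroblast and 7 of 8 endothelium genes, while 8 of 8 macrophage genes were higher, beside 47.9% of all tested genes. Summed levels of adipocyte markers (283 to 298 CPM with C. tropicalis, 279 to 597 CPM in controls) and macrophage markers (163 to 248 and 115 to 225 CPM) overlapped. Those of enteric neuron and glia, fibroblast and endothelium markers lay below the controls. There were 0 calls in any marker list. The part of these markers in the members' values was not tested.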

How the data were processed

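The deposited values are raw read counts per gene, made by the authors with TopHat2 2.0.12, HTSeq (version written as 6.1) and DESeq 1.18.0 on mm10, per the submitters' processing notes. For the annotation release, the strand setting and the treatment of reads in 2 genes, the sources used here give nothing; per the labels' protocols the kit was NEBNext Ultra. Symbols, positions and exons came from GENCODE M21 (GRCm38), which matched 52489 of 52636 identifiers. Counts were fitted with edgeR 4.0.16 (R 4.3.3): TMM factors, filterByExpr on the 3 groups, 1 quasi-likelihood fit of all 8 libraries with 5 residual degrees of freedom, Benjamini-Hochberg over 16107 genes and a threshold of 0.05. The test for both yeasts together compares the mean of the 2 colonized coefficients with control. CPM values use total counts times the TMM factor; intervals use residual plus prior degrees of freedom, and log2 CPM for correlations and marker scores uses a prior count of 2. No 2 libraries of the same group agreed within sampling noise, and pairs across groups were not checked. The pipeline was tested on simulated counts in which 200 genes were changed. It recovered 36% of 2-fold changes for C. albicans against control and 23% for C. tropicalis, and 81% of 4-fold changes in each. It also called 10 and 2 unchanged genes. Alternatives were DESeq2 1.42.0, limma-voom 3.58.1, 2 other scalings, 2 other filters, a threshold of 0.1, 2-group fits, a replicate block, a smooth muscle covariate and each library left out. The members and lists were chosen with earlier results of these data known. Named from each list were genes past the threshold and otherwise the 2 with the smallest unadjusted p with each yeast; for each tested member, the 2 genes of most similar pattern (protein-coding, not predicted, ribosomal or mitochondrial) were named. Each group has 2 or 3 libraries, which limits precision.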

Additional observations from a re-analysis of the deposited data

How the results depend on the processing

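Counts over all genes depended strongly on the settings, and the cause was not tested. With C. albicans against control 7 genes passed in the edgeR fit, 43 at a threshold of 0.1, 442 by DESeq2, 119 where low counts were not filtered out, 16 with the smooth muscle covariate, and 0 to 254 with 1 library left out. With C. tropicalis against control the counts were 5, 10, 380, 71 and 0 in that order, 0 to 192 with 1 library left out, and 0 with only those 2 groups. Between the yeasts they were 0, 1481, 1737 and 1127 (no filter), 858 with only those 2 groups, and 0 to 1315 with 1 library left out. For both yeasts against control they were 8, 29, 273, 59 and 55, and 0 to 31 with 1 library left out. Of the members, 0 passed in each comparison, except 1 with DESeq2 for C. albicans, between the yeasts and for both yeasts, 1 between the yeasts with only those 2 groups, and 0 to 1 there with 1 library left out.

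To look for pairing, deviations of each library from its group mean were correlated, not the levels themselves. For same-numbered control and C. albicans libraries these correlations were -0.39, -0.080 and -0.13. They were -0.019 and 0.029 for control and C. tropicalis, and 0.16 and 0.15 for the yeasts. The deviations of the C. tropicalis libraries mirror each other by construction, so values with that yeast are not independent. Not every pair's correlation exceeded 0.1, so the numbers were not taken as pairing the libraries. The replicate block gave 0 genes for C. albicans, for C. tropicalis and for both yeasts against control, called no member, and turned the sign of Nr3c1 between the yeasts (-0.079).

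Log2 fold changes of the members changed sign in 24 cases, where the lowest edgeR adjusted p was 0.649. Among them was Zbtb16 between the yeasts, at -0.35 in the main fit. With the smooth muscle covariate the log2 fold change was 0.12 for Mt1 with C. albicans, 0.33 for Nr3c1 and -0.13 for Hsd11b2 with C. tropicalis, and between the yeasts -0.40 for Hsd11b2, -0.077 for Sgk1 and 0.77 for Zbtb16. With 1 library left out, the ranges with C. albicans were -0.29 to 0.12 for Nr3c1, -0.085 to 0.16 for Hsd11b2, -0.045 to 0.48 for Fkbp5 and -0.50 to 0.17 for Mt1. With C. tropicalis Nr3c1 ranged from -0.23 to 0.18. Between the yeasts the ranges were -0.023 to 0.16 for Nr3c1, -0.0022 to 0.18 for Hsd11b2 and -0.020 to 0.24 for Sgk1. For both yeasts they were -0.26 to 0.15 for Nr3c1, -0.030 to 0.18 for Hsd11b2, -0.41 to 0.11 for Fkbp5 and -0.17 to 0.044 for Cdkn1a. Other scalings moved the median of all genes by under 0.1 on the log2 scale.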

Other observations

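For the epithelial sodium channel, whose surface level Sgk1 sustains, RNA of 2 subunit genes, Scnn1g and Scnn1b, varied far more than that of Sgk1. Both were picked here after their values were seen, and other subunits are not given. Scnn1g was at 12.4, 32.9 and 83.5 CPM in controls, 26.6, 4.72 and 8.29 CPM with C. albicans, and 211 and 140.3 CPM with C. tropicalis. Scnn1b was at 31.6, 52.0 and 106.5 CPM in controls, 61.3, 22.2 and 33.9 CPM with C. albicans, and 191 and 139 CPM with C. tropicalis. For both genes the 3 highest libraries were control 3 and the 2 of C. tropicalis, the same 3 libraries in which Cdx2 was lowest.

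Hsp90aa1, the stress-inducible HSP90 that holds the receptor, split within groups. It was at 7.93, 177 and 154 CPM in controls, 13.6, 408 and 16.6 CPM with C. albicans, and 500.4 and 412 CPM with C. tropicalis. Control 1, C. albicans 1 and C. albicans 3 were more than 9 times below every other library, and the gene shares 0 exon bases with another gene. It was picked after its values were seen, and the split follows no label.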
